A study of Mus musculus with 78 samples.

Results

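The inner lining of the partially ligated left common carotid artery (LCA) was compared here with that of the unligated right common carotid artery (RCA) of the same mouse, 24 h after surgery, in 5 mice given vehicle. The 10 arrays were chosen by their titles (vehicle, 24 h) and joined into pairs by the mouse number, and are 10 of the 78 arrays and 5 of the 39 mice of the series. In the series as a whole, the LCA of every mouse was partially ligated, atorvastatin (10 mg/kg/day, a statin) or vehicle was given by mouth each day from 2 days before surgery, and tissue from both carotids was collected 12 h, 24 h, 48 h or 2 weeks later. Besides the 24 h vehicle mice, the groups set beside them below are 5 atorvastatin-treated mice at 24 h and 5 vehicle-treated mice each at 12 h and 48 h, all of them separate animals. Every mouse had been operated on, so that the RCA is the untied artery of an operated animal and not that of an unoperated one. Strain, sex, age and the composition of the vehicle are not in the labels used here. Endothelial-enriched RNA was flushed from each artery with a lysis reagent and hybridised to 1 Affymetrix array per artery, and values are deposited log2 expression values normalized with RMA, so that a difference of 1 is a 2-fold change.

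Partial ligation closes most of the branches that drain the LCA, and leaves that artery with low, oscillating flow while the RCA keeps its steady forward flow. Endothelial cells sense the drag of blood along their surface. Steady flow sustains a programme built around the transcription factors KLF2 and KLF4, which raises endothelial nitric oxide synthase, thrombomodulin and other genes that keep the wall relaxed, quiescent and free of clots, while low and disturbed flow withdraws that programme and favours leukocyte adhesion, growth and, later, atherosclerosis.

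Of 11344 genes tested, 1620 (14.3%) differed between the LCA and the RCA at 24 h at an adjusted p under 0.05, 816 (7.19%) of them higher and 804 (7.09%) lower in the LCA. The test was limma on the differences within each mouse, with Benjamini-Hochberg adjustment over all genes, and all differences below are the mean log2 LCA minus RCA of 5 mice with the standard error (SE) of that fit. The median difference of all genes was 0.03, and 90% of genes lay between the 5th and 95th percentiles of -0.71 and 0.76. At least 2-fold differences passed the test in 198 genes that were higher and 244 that were lower, and at least 4-fold differences in 19 and 24. The LCA differed from the RCA in the same direction in 5 of 5 mice for 1499 of the 1620 genes, and for 3504 (30.9%) of all genes. The 5 LCA values did not overlap the 5 RCA values for 993 of the 1620, against 1431 (12.6%) of all genes.

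**Figure D1:**
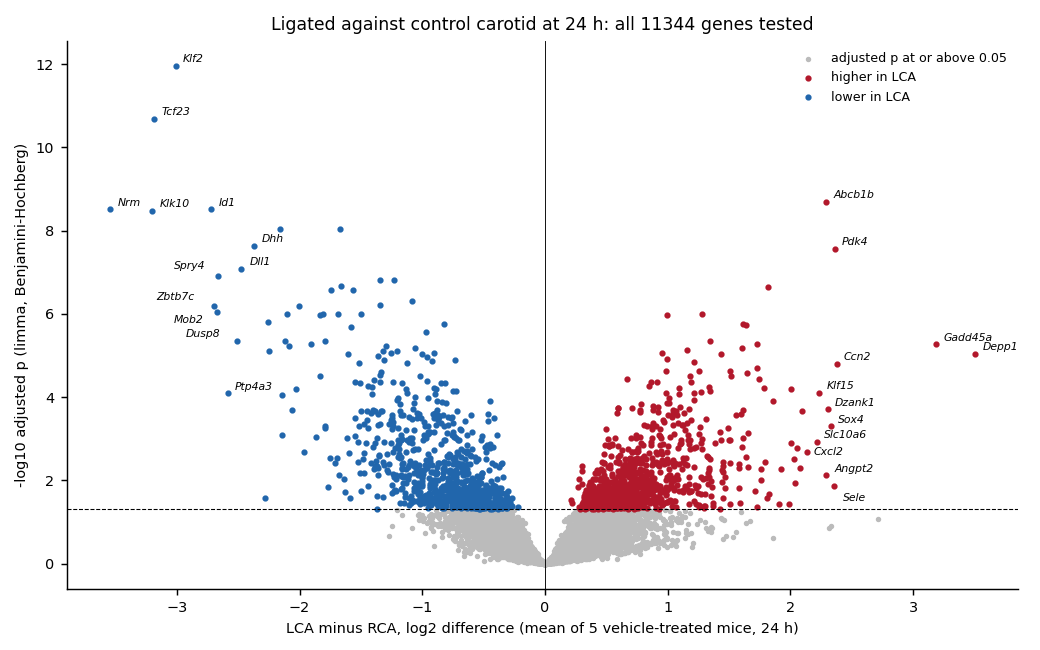
Each point is 1 of 11344 genes, with the mean log2 difference between LCA and RCA of 5 vehicle-treated mice at 24 h on the x axis and -log10 of the limma adjusted p on the y axis. The dashed line marks an adjusted p of 0.05, and 816 genes in red were higher and 804 in blue lower in the LCA. The names mark the 12 largest rises and 12 largest falls that passed and went the same way in all 5 mice, predicted genes left out.

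The arteries also differed in a measure of RNA quality. The arrays carry control probe sets at both ends of the Gapdh message, and the log2 signal at the 3′ end over that at the 5′ end grows when RNA is broken or copied incompletely. This ratio was 4.82, 5.59, 5.31, 4.43 and 4.72 in the LCA of mice 1 to 5, against 4.20, 4.14, 3.63, 4.01 and 4.20 in the RCA. It was higher in the LCA in 5 of 5 mice, by 1.46 in mouse 2 and 1.68 in mouse 3, and by 0.41 to 0.62 in the other 3 (exact sign-flip permutation test, two-sided p = 0.0625, the smallest that 5 pairs allow). The same ratio for b-actin was higher by 0.24 on average, also in 5 of 5 mice (exact p = 0.0625). With the Gapdh ratio as a covariate in the fit, 386 genes passed, among them 365 of the 1620, 142 higher and 223 lower. Those 365 are 3.22% of all genes tested. Leaving out mice 2 and 3, an alternative chosen after seeing the data that leaves 3 mice, 442 genes passed, 428 of them among the 1620. Leaving out mouse 2, 3 or 5 alone left 1047, 898 and 920 genes, and 619 of the 1620 passed whichever mouse was left out, 302 of them also with the covariate. Below, where the covariate ended a call, the adjusted p with it follows the first one, and the mice without which a call was lost are named, with the largest adjusted p that leaving them out gave.

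All 15 endothelial marker genes passed the filter on dim probe sets, and their mean level was 9.44 to 9.74 in the LCA and 9.64 to 9.77 in the RCA. The pan-endothelial Pecam1 and Cdh5 (VE-cadherin) differed by -0.17 (adjusted p = 0.565) and -0.05 (adjusted p = 0.882), and von Willebrand factor (Vwf) by 0.13 (adjusted p = 0.648). Of the 15, Icam2 (-1.83, adjusted p = 1.09e-06) and Cldn5 (-1.14, adjusted p = 0.0245, 0.642 with the covariate) fell, Sox17 (0.62, adjusted p = 0.00843, 0.155 with the covariate) and Eng (0.54, adjusted p = 0.0169, 0.394 with the covariate) rose and 11 did not pass. Of all genes 14.3% were called. Of the other cell lists, none of 3 measured Schwann cell and 4 measured B cell markers passed the filter, and 1 of 6 for skeletal muscle. None of the 5 T cell, 3 dendritic cell, 3 mast cell, 3 adipocyte or 3 erythroid markers tested had an adjusted p under 0.05. The smooth muscle markers averaged 5.52 to 5.77 in the LCA and 5.45 to 5.81 in the RCA, and of the 7 tested 1 passed, Acta2 (1.30, adjusted p = 0.0473, 0.3 with the covariate), while Myh11, the smooth muscle myosin, differed by -0.39 (adjusted p = 0.772). Fibroblast, macrophage, neutrophil and erythroid markers moved differently from mouse to mouse. The 9 fibroblast markers were on average 0.88 and 0.55 higher in the LCA of mice 1 and 4 and -0.91, -0.09 and -0.43 in mice 2, 3 and 5. The 12 macrophage markers, none of which passed the test, averaged 1.04, 0.64 and 1.37 in mice 1, 2 and 4 and -0.75 and -0.36 in mice 3 and 5. The 3 erythroid markers averaged -1.179, 0.825, 0.64, -0.865 and -0.98 in mice 1 to 5, with Hba-a1 running from -2.49 to 2.59. In such bulk samples fewer cells of a type and less RNA per cell cannot be told apart, and the part of cell composition in the differences below was not tested. The arrays were run in 4 batches per the labels, which do not assign the samples to them, so a batch effect was not tested.

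The upstream flanks of the genes for Klf2 and Klk10, the gene with the smallest adjusted p and the second largest of the leading falls described below, are shown. Both hold a MEF2-type site, the element through which MEF2 factors switch on KLF2 under flow. The 250 bases before the annotated start site were read from RefSeq on GRCm38.p6, plus strand, chr8:72318812-72319061 for Klf2 and chr7:43780804-43781053 for Klk10, and capitals mark the match.
Klf2: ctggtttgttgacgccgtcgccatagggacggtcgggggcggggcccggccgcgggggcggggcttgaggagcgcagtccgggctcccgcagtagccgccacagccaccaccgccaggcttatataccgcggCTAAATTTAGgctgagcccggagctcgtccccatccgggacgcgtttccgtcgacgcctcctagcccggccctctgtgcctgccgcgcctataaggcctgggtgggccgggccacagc
Klk10: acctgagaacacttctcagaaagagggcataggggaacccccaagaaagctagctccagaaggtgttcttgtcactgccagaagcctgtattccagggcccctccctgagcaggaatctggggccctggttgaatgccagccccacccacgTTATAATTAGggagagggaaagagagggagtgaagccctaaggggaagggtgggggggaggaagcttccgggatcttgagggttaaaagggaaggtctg
The match lies at -118 to -109 from the start site of Klf2 and at -99 to -90 from that of Klk10. On both strands, such a site was found in 2 of the 8 leading falls with a promoter in the table, in none of 10 leading rises and in 2.92% of all 32851 mouse promoters. The letters CACCC, the core that KLF proteins bind, were in all 8 of these falls and in 6 of 10 rises, against 52% of all promoters. Of 12 promoters of risen genes of the FoxO-type list described below, 1 (Cdkn1b) held a MEF2-type site and 8 held CACCC. A match describes the letters and not binding, which was not measured.

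Klf2 itself was the gene most clearly separated. Its log2 level was 7.36, 7.19, 7.59, 7.09 and 7.47 in the LCA of mice 1 to 5, against 10.27, 10.09, 10.64, 10.61 and 10.13 in the RCA, a difference of -3.01 (SE 0.20, adjusted p = 1.09e-12). The 5 ligated arteries lay close together and over 2 log2 units below every control artery. Klf4, which shares many targets with it, had 10.27, 9.90, 10.17, 9.88 and 10.34 in the LCA and 11.40, 11.24, 11.77, 11.66 and 11.55 in the RCA, and fell by 1.41 (SE 0.33, adjusted p = 0.00375). Of 10 KLF genes tested, 4 fell and 1 rose, with a median of -0.45, beside 7.09% of all genes lower and 7.19% higher. Klf3 (-0.85, adjusted p = 0.000424) and Klf12 (-1.06, adjusted p = 0.00374, 0.149 with the covariate) were the other falls. Klf15, a factor of fasting and glucocorticoid responses, went the other way, with 6.73, 6.71, 6.91, 6.75 and 7.23 in the LCA and 4.57, 4.93, 4.55, 4.39 and 4.71 in the RCA, and a difference of 2.23 (SE 0.37, adjusted p = 7.99e-05). For Klf15 every LCA value lay above every RCA value.

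Genes known to follow laminar flow were largely lower in the LCA. Of 18 tested, 10 fell, none rose and 8 did not pass, with a median of -0.73, against 0.03 for all genes and 7.09% of all genes lower. With the covariate 8 of the 10 falls passed. Klk10, a secreted serine protease that in mouse endothelium follows steady flow, had 7.84, 6.77, 7.89, 7.69 and 7.33 in the LCA and 10.45, 10.73, 10.94, 10.74 and 10.67 in the RCA, a difference of -3.20 (SE 0.30, adjusted p = 3.38e-09). The fall in single mice was -3.96 to -2.60, with no overlap. Nos3, endothelial nitric oxide synthase, had 7.78, 7.28, 7.53, 7.55 and 6.92 in the LCA against 8.55, 8.83, 8.90, 9.21 and 8.19 in the RCA, and fell by 1.32 (SE 0.19, adjusted p = 7.68e-06), least in mouse 1. Palmd, encoding palmdelphin, was lower in every mouse, by -1.38 to -0.81 (-1.06, adjusted p = 6.62e-06 on average), and Thbd, thrombomodulin, which turns thrombin to anticoagulant work, differed by -0.59 (adjusted p = 0.0172) with no overlap between the arteries. Smaller falls were those of the metalloproteinase inhibitor Timp3 (-0.94, adjusted p = 0.000681, 0.0573 with the covariate), the scaffold Slc9a3r2 (-0.68, adjusted p = 0.00172, 0.0917 with the covariate) and the quinone reductase Nqo1 (-0.77, adjusted p = 0.00652). Among the 8 that did not pass, the water channel Aqp1 differed by -0.36 (adjusted p = 0.539). Cyp1b1 was higher in every mouse, by 0.45 to 0.93 (0.77, adjusted p = 0.0672), and Hmox1 differed by 0.67 (adjusted p = 0.38). Single mice decided the call of Thbd (mouse 3 or 5, up to 0.0636).

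**Figure D2:**
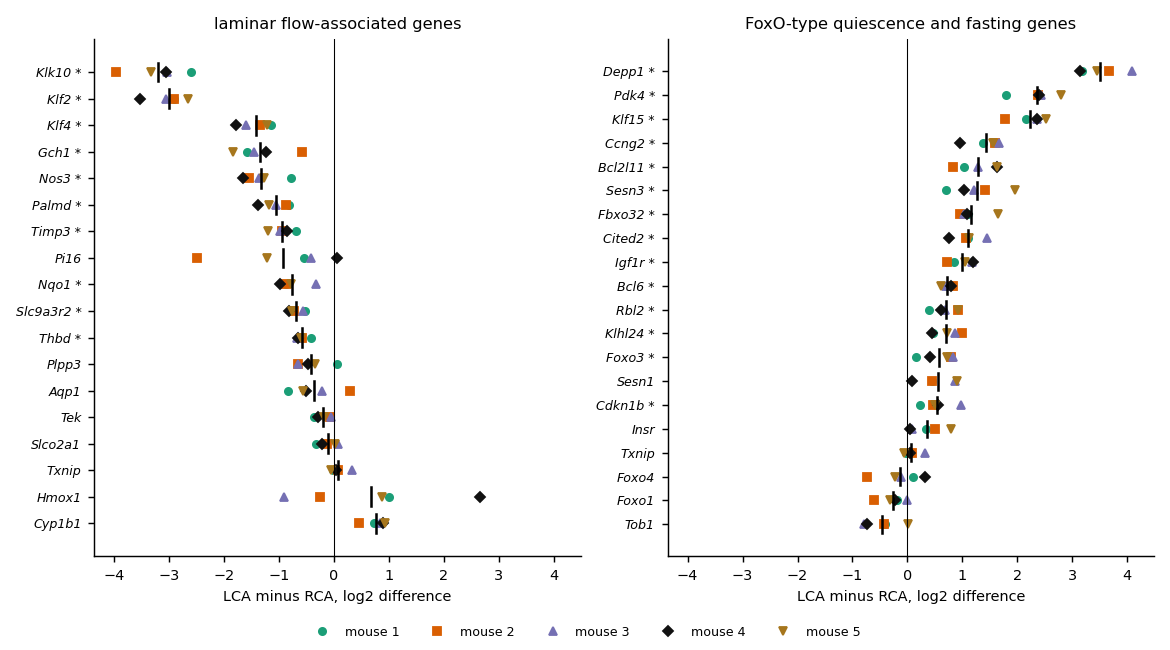
Log2 difference between LCA and RCA of each of the 5 vehicle-treated mice at 24 h for the 18 laminar flow-associated genes (left) and the 20 genes of the FoxO-type list (right), with 1 symbol per mouse and a black bar at the mean. An asterisk marks an adjusted p under 0.05, which 10 genes on the left passed below zero and 14 on the right above it.

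Of 18 genes of nitric oxide synthesis and caveolae, the synthase included, 5 fell and 1 rose, with a median of -0.14, beside 7.09% of all genes lower and 7.19% higher. Gch1, the first enzyme in making tetrahydrobiopterin, the cofactor of the synthase, had 5.92, 6.87, 6.80, 6.79 and 6.64 in the LCA and 7.50, 7.46, 8.26, 8.03 and 8.47 in the RCA, and fell by 1.34 (SE 0.26, adjusted p = 0.000431). The other bright probe set of Gch1 differed by -0.27. Ass1, which regenerates arginine from citrulline, had 5.61, 5.04, 4.75, 5.99 and 3.99 in the LCA and 7.46, 7.25, 7.51, 7.11 and 6.79 in the RCA. Its difference was -2.14 (SE 0.43, adjusted p = 0.000809, 0.15 with the covariate), with no overlap, while its other bright probe set differed by -0.21. Ddah2, which clears an inhibitor of the synthase, fell by 1.22 (adjusted p = 0.00168, 0.248 with the covariate). Cavin1, a coat protein of caveolae, differed by -2.03 (adjusted p = 6.56e-05) at its brightest probe set, while its other bright probe set differed by 0.01. The rise was that of the arginine-making Asl (0.51, adjusted p = 0.0428, 0.373 with the covariate). Caveolin 1 (Cav1) ran from -0.20 to 0.13 in single mice (-0.08, adjusted p = 0.635). Leaving out 1 mouse ended the call of Asl (mouse 1, 2, 3, 4 or 5, up to 0.176).

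The 12 largest falls that passed with the same sign in 5 of 5 mice, predicted genes left out, ranged from -3.54 to -2.37. Each of them passed with the covariate. Nrm, a protein of the inner nuclear membrane, had 5.71, 5.50, 5.25, 5.67 and 5.18 in the LCA and 8.63, 8.28, 9.64, 9.78 and 8.69 in the RCA, -3.54 (SE 0.33, adjusted p = 3.07e-09). Tcf23, a basic helix-loop-helix factor, had 3.52, 4.03, 4.49, 4.66 and 4.05 in the LCA and 6.50, 6.27, 8.25, 7.86 and 7.81 in the RCA, -3.19 (SE 0.24, adjusted p = 2.04e-11). For both, every ligated artery lay far below every control artery. Zbtb7c, a zinc finger transcription factor, fell by 2.69 (adjusted p = 6.39e-07), and Mob2, a partner of the NDR kinases, fell by 2.68 (adjusted p = 8.99e-07). Spry4, a Sprouty inhibitor of receptor tyrosine kinase signalling, had 5.78, 5.65, 6.02, 5.20 and 5.79 in the LCA and 8.14, 7.67, 8.93, 8.56 and 8.49 in the RCA, -2.67 (SE 0.30, adjusted p = 1.22e-07). It was the only call among 14 genes of ERK feedback, whose median was -0.11, beside 14.3% of all genes called. Dusp8, a phosphatase of stress-activated kinases, fell by 2.51 (adjusted p = 4.51e-06), and the phosphatase Ptp4a3 fell by 2.58 (adjusted p = 8.06e-05). The other bright probe sets of Dusp8 differed by -1.50 and -0.23. Dhh, the ligand Desert hedgehog, had 9.31, 8.43, 9.03, 9.03 and 8.76 in the LCA and 11.32, 11.12, 11.46, 11.34 and 11.18 in the RCA, -2.37 (SE 0.24, adjusted p = 2.31e-08). The RCA values for Dhh lay close together, and mouse 2 had the lowest LCA value.

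**Figure D3:**
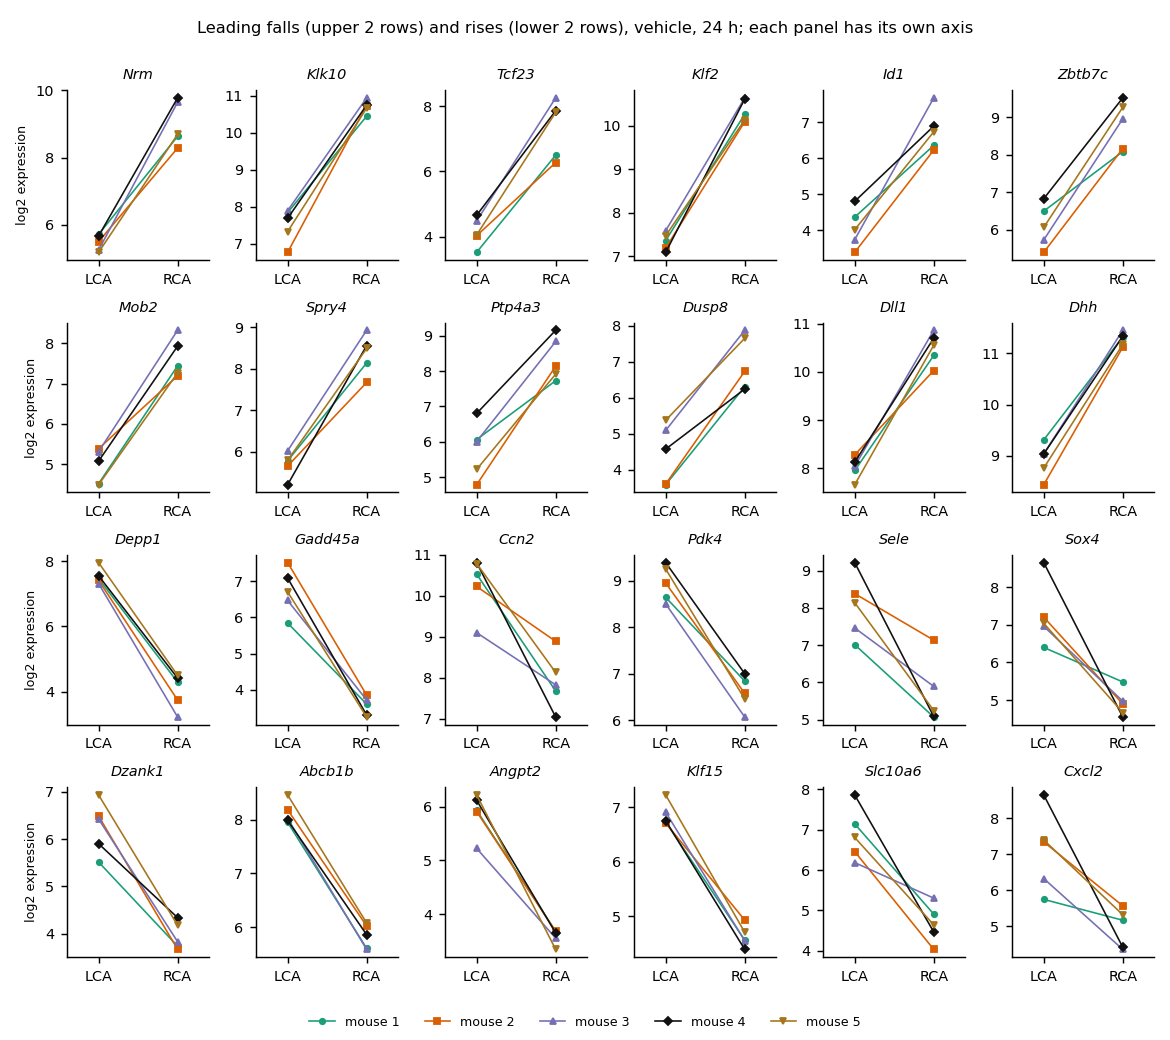
Log2 expression of the 12 largest falls (upper 2 rows) and 12 largest rises (lower 2 rows), predicted genes left out, in the LCA and RCA of the 5 vehicle-treated mice at 24 h, with a line joining both arteries of a mouse. The lines slope one way in every panel, and LCA and RCA values overlap only for Sele.

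Notch signalling guards arterial identity. Of 16 genes tested 5 fell and 1 rose, with a median of 0.04, beside 7.09% of all genes lower and 7.19% higher. The ligand Dll1 had 7.96, 8.28, 8.04, 8.13 and 7.66 in the LCA and 10.34, 10.03, 10.86, 10.70 and 10.55 in the RCA, a difference of -2.48 (SE 0.27, adjusted p = 8.35e-08). The differences in single mice were -2.89 to -1.75, and the arteries did not overlap. The ligand Jag1 (-1.10, adjusted p = 0.000952, 0.0524 with the covariate), the receptor Notch1 (-0.75, adjusted p = 0.000684, 0.0917 with the covariate), the feedback inhibitor Nrarp (-1.33, adjusted p = 0.000213) and the vein-enriched receptor Ephb4 (-1.0, adjusted p = 0.0103, 0.524 with the covariate) were lower too. The target Hey1 was higher by 0.63 (adjusted p = 0.036, 0.163 with the covariate), and Dll4, the main ligand of sprouting vessels, differed by 0.39 (adjusted p = 0.23). Calls lost with 1 mouse left out were those of Ephb4 (mouse 5, up to 0.0514) and Hey1 (mouse 1, 2, 3 or 4, up to 0.164).

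Among genes of BMP and ALK1 signalling, the receptor pathway through which endothelium reads circulating BMP9, 4 of 22 fell and 3 rose. Beside them, 7.09% of all genes were lower and 7.19% higher. Id1, a standard target, had 4.37, 3.39, 3.74, 4.81 and 4.02 in the LCA and 6.36, 6.23, 7.68, 6.90 and 6.74 in the RCA, a difference of -2.72 (SE 0.25, adjusted p = 3.07e-09). Ligated arteries were lower in every mouse, by -3.94 to -1.99, and mouse 3 had the widest gap. The other Id genes did not pass, with Id2 at 0.38 (adjusted p = 0.168), Id3 at -0.33 (adjusted p = 0.222) and Id4 at 0.61 (adjusted p = 0.348). Smad6 differed by 0.11 (adjusted p = 0.87) and Smad7 by -0.38 (adjusted p = 0.117). The receptor ALK1 (Acvrl1) fell by 0.97 (SE 0.13, adjusted p = 2.78e-06), while the mediator Smad1 rose by 0.86 (adjusted p = 4.24e-05), both also with the covariate. Endoglin (Eng), the co-receptor, rose by 0.54 (adjusted p = 0.0169, 0.394 with the covariate), and the ligand Bmp6 rose by 0.55 (adjusted p = 0.0149, 0.25 with the covariate). The other bright probe sets of Smad1 and Eng differed by 0.16 and 0.09. The receptor Bmpr2 differed by 0.08 (adjusted p = 0.729), the antagonist chordin (Chrd) by -0.57 (adjusted p = 0.0353, 0.276 with the covariate) and the follistatin-like Fstl1 by -0.43 (adjusted p = 0.00385). With 1 mouse left out, the call was lost for Eng (mouse 1, 3 or 4, up to 0.0852), Bmp6 (mouse 3 or 5, up to 0.0597) and Chrd (mouse 2, 3, 4 or 5, up to 0.164).

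The connexins that join arterial endothelial cells went different ways. Connexin 40 (Gja5) had 8.67, 7.64, 8.32, 9.15 and 7.84 in the LCA and 10.39, 9.73, 10.85, 10.52 and 9.94 in the RCA, -1.96 (SE 0.43, adjusted p = 0.00209, 0.245 with the covariate). Connexin 37 (Gja4) had 8.64, 8.40, 8.56, 8.89 and 8.73 in the LCA and 7.26, 8.11, 7.15, 7.50 and 7.26 in the RCA, 1.19 (SE 0.19, adjusted p = 4.45e-05). In mouse 2 the Gja4 difference was 0.29, in the other 4 mice 1.38 to 1.47. With the covariate the Gja5 difference was -1.04 (adjusted p = 0.245). Connexin 45 (Gjc1) fell by 0.79 (adjusted p = 0.000457), and connexin 43 (Gja1), linked to disturbed flow, ran from -1.52 to 2.77 in single mice (0.15, adjusted p = 0.927). Among 24 endothelial transcription factors, Sox17 (0.62, adjusted p = 0.00843, 0.155 with the covariate) and Sox4 rose and Zbtb46 (-0.96, adjusted p = 4.1e-05) and Foxp1 (-0.42, adjusted p = 0.0129, 0.478 with the covariate) fell. Beside these factors, 7.19% of all genes were higher and 7.09% lower. Sox4 had 6.40, 7.20, 6.96, 8.65 and 7.04 in the LCA, highest in mouse 4, and 5.48, 4.90, 4.97, 4.55 and 4.67 in the RCA, 2.33 (SE 0.45, adjusted p = 0.000507). The other bright probe sets of Sox4 differed by 0.33 to 0.55. Single mice decided the call of Foxp1 (mouse 2, up to 0.0527).

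The 12 largest rises that passed with the same sign in 5 of 5 mice, predicted genes left out, ranged from 2.13 to 3.51. Depp1 and Gadd45a led them, and Pdk4 and Klf15 were among the others. Depp1, a small protein induced by FoxO factors, had 7.47, 7.41, 7.31, 7.55 and 7.96 in the LCA and 4.29, 3.74, 3.22, 4.42 and 4.50 in the RCA, a difference of 3.51 (SE 0.50, adjusted p = 9.07e-06). Gadd45a, which stalls the cell cycle after stress, had 5.85, 7.52, 6.47, 7.09 and 6.71 in the LCA and 3.60, 3.85, 3.71, 3.30 and 3.24 in the RCA, 3.19 (SE 0.44, adjusted p = 5.42e-06). Pdk4, the kinase that shuts pyruvate out of the mitochondrion in fasting, had 8.65, 8.95, 8.51, 9.39 and 9.26 in the LCA and 6.84, 6.58, 6.07, 7.0 and 6.46 in the RCA, 2.36 (SE 0.24, adjusted p = 2.7e-08). For these 3 genes the LCA and RCA values did not overlap. FoxO factors are transcription factors held out of the nucleus by growth factor signals, and their known targets brake growth and spare fuel.

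The FoxO-type list is one of quiescence and fasting genes, and holds the factors Foxo1, Foxo3 and Foxo4 as well as genes linked to them. Of its 20 genes tested, 14 rose and none fell, with a median of 0.72, against 7.19% of all genes higher. With the covariate 8 of the 14 passed. This list, like the others, was chosen with earlier results of these data known, and it holds the leading rises Depp1, Pdk4 and Klf15. Its counts, here and in the comparisons below, are thus not independent of that choice. Bcl2l11 (BIM), a trigger of cell death, had 9.97, 9.55, 10.05, 9.99 and 9.92 in the LCA and 8.94, 8.73, 8.76, 8.37 and 8.29 in the RCA, 1.28 (SE 0.16, adjusted p = 9.86e-07). The insulin-like growth factor receptor Igf1r had 8.79, 8.74, 8.51, 8.79 and 8.66 in the LCA and 7.93, 8.03, 7.35, 7.60 and 7.61 in the RCA, 1.0 (SE 0.13, adjusted p = 1.09e-06). Ccng2, an unusual cyclin that halts division, rose by 1.43 (adjusted p = 9.02e-06), the ubiquitin ligase Fbxo32 (atrogin 1) rose by 1.17 (adjusted p = 0.000793) and the cofactor Cited2 rose by 1.10 (adjusted p = 0.000172). Sesn3, a brake on mTORC1, rose by 1.26 (adjusted p = 0.000525, 0.0971 with the covariate). Smaller rises were those of the pocket protein Rbl2 (0.71, adjusted p = 0.00992, 0.261 with the covariate), the repressor Bcl6 (0.72, adjusted p = 0.0102, 0.233 with the covariate) and the ubiquitin ligase adaptor Klhl24 (0.70, adjusted p = 0.036, 0.514 with the covariate), and a second probe set of Bcl6 differed by -0.42. The factor Foxo3 itself rose by 0.58 (adjusted p = 0.00363, 0.14 with the covariate), Foxo1 differed by -0.27 (adjusted p = 0.206), and Txnip, an inhibitor of thioredoxin, by 0.07 (adjusted p = 0.904). The FoxO core GTAAACA was in 1 of the 12 promoters of risen genes found in the table, that of Bcl2l11, and in 3.17% of all promoters. Leaving out 1 mouse ended the call of Rbl2 (mouse 5, up to 0.05) and Klhl24 (mouse 1, 2, 3, 4 or 5, up to 0.128).

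Of 14 growth arrest genes 5 rose and none fell, and of 28 cell cycle genes 3 fell and none rose, beside 7.19% of all genes higher and 7.09% lower. The rises had among them the CDK inhibitor Cdkn2c (p18, 0.76, adjusted p = 0.00165) and Btg1 (0.45, adjusted p = 0.03, 0.297 with the covariate). Cdkn1b (p27) had 0.54 (adjusted p = 0.0256, 0.182 with the covariate) at its brightest probe set and -0.68 at its other one. The p53 target Cdkn1a differed by -0.20 (adjusted p = 0.768). All 3 D cyclins, which carry cells into the cycle, were lower, and they were the only calls among the cell cycle genes. Ccnd1 had 8.37, 8.35, 7.17, 8.0 and 8.35 in the LCA and 9.48, 9.65, 9.20, 9.13 and 9.58 in the RCA, -1.36 (SE 0.35, adjusted p = 0.00724, 0.0559 with the covariate), lowest in the LCA of mouse 3. Ccnd2 fell by 0.45 (adjusted p = 0.00134). Ccnd3 had -1.55 (SE 0.29, adjusted p = 0.00031, 0.0602 with the covariate) at its brightest probe set, while a second probe set differed by 0.67. Mki67, the standard mark of dividing cells, ran from -1.80 to 2.71 in single mice (0.09, adjusted p = 0.953), higher in the LCA of mice 1 and 4 and lower in that of the other 3. Among 20 genes of cell death, the protectors Bcl2l1 (BCL-XL, -1.60, adjusted p = 0.00222, 0.128 with the covariate), Mcl1 (-0.36, adjusted p = 0.0288, 0.241 with the covariate) and Bcl2l2 (-0.42, adjusted p = 0.0367, 0.422 with the covariate) were lower. The inhibitors Birc2 (0.76, adjusted p = 0.00193, 0.132 with the covariate) and Birc3 (0.87, adjusted p = 0.00428, 0.13 with the covariate) and the mitophagy factor Bnip3 (0.68, adjusted p = 0.0121, 0.241 with the covariate) were higher, and another probe set of Bcl2l2 differed by 0.19. Calls lost with 1 mouse left out were those of Btg1 (mouse 2, 3, 4 or 5, up to 0.115), Cdkn1b (mouse 2, 3, 4 or 5, up to 0.143), Ccnd1 (mouse 3, up to 0.0515), Mcl1 (mouse 1, 2, 3 or 5, up to 0.112), Bcl2l2 (mouse 2, 3, 4 or 5, up to 0.201) and Bnip3 (mouse 3 or 5, up to 0.0806).

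Of 9 leukocyte adhesion genes 3 rose, 1 fell and 5 did not pass, with a median of 0.42, beside 7.19% of all genes higher and 7.09% lower. E-selectin (Sele), which catches rolling leukocytes, had 7.01, 8.38, 7.46, 9.21 and 8.14 in the LCA and 5.07, 7.13, 5.89, 5.08 and 5.25 in the RCA, a difference of 2.36 (SE 0.66, adjusted p = 0.014, 0.366 with the covariate). It was higher in 5 of 5 mice, but the RCA of mouse 2 lay above the LCA of mouse 1. With the covariate the Sele difference was 1.45 (adjusted p = 0.366). P-selectin (Selp) had 10.95, 11.18, 11.23, 11.13 and 11.04 in the LCA and 10.79, 10.54, 10.51, 10.57 and 10.44 in the RCA, 0.54 (SE 0.12, adjusted p = 0.0026), and Icam1 differed by 0.42 (SE 0.13, adjusted p = 0.0268). Vcam1 was higher in 5 of 5 mice, by 0.05 to 0.61, without passing the test (0.30, adjusted p = 0.324). Icam2, a constitutive endothelial ligand of leukocytes, was lower, with 7.88, 8.17, 8.22, 8.21 and 8.38 in the LCA and 9.89, 9.61, 10.46, 10.08 and 9.98 in the RCA, -1.83 (SE 0.23, adjusted p = 1.09e-06). With 1 mouse left out, the call was lost for Sele (mouse 4 or 5, up to 0.0818) and Icam1 (mouse 2, 3, 4 or 5, up to 0.104).

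Of 20 chemokine genes 2 rose, beside 7.19% of all genes, both ligands that draw neutrophils, with a list median of 0.61 and means over the list of 1.02, 0.67, -0.26, 1.46 and 0.18 in mice 1 to 5. Cxcl2 had 5.74, 7.34, 6.32, 8.65 and 7.40 in the LCA and 5.16, 5.56, 4.35, 4.41 and 5.31 in the RCA, 2.13 (SE 0.47, adjusted p = 0.00206, 0.0619 with the covariate), with mouse 4 highest and mouse 1 lowest among ligated arteries. Cxcl1 rose by 0.78 (adjusted p = 0.0279, 0.204 with the covariate), and the monocyte chemokine Ccl2 differed by 0.34 (adjusted p = 0.636). Of 21 NF-kB genes 4 rose and 2 fell, with a median of 0.34, beside 14.3% of all genes called in either direction. The rises were 3 inhibitors of the pathway, A20 (Tnfaip3, 1.35, adjusted p = 7.05e-05), IkB epsilon (Nfkbie, 1.11, adjusted p = 0.00127, 0.0891 with the covariate) and Tnip1 (0.67, adjusted p = 0.00548), with Birc3. The falls were Tnfaip2 (-1.45, adjusted p = 0.000217) and the receptor Cd40 (-0.90, adjusted p = 0.00614, 0.0978 with the covariate). Of 15 interferon response genes Gbp3 (0.99, adjusted p = 0.00962, 0.299 with the covariate) and Rsad2 (1.45, adjusted p = 0.0269, 0.31 with the covariate) rose, with another probe set of Rsad2 at -0.17, and none of 9 antigen presentation genes passed. Single mice decided the call of Cxcl1 (mouse 2, 3, 4 or 5, up to 0.119), Gbp3 (mouse 3, up to 0.0763) and Rsad2 (mouse 1, 2, 3, 4 or 5, up to 0.123).

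The LCA of mouse 4 stood apart for genes of neutrophils and for some platelet genes. The calprotectin subunit S100a8 had 4.13, 3.95, 3.43, 8.50 and 2.79 in the LCA of mice 1 to 5 and 2.71, 3.22, 3.18, 2.98 and 2.94 in the RCA, and S100a9 had 5.06, 5.47, 4.51, 10.34 and 4.60 in the LCA. The chemokine receptor Cxcr2 had 2.68, 2.75, 2.49, 5.84 and 2.57 and the growth factor receptor Csf3r 3.62, 3.66, 3.21, 5.73 and 3.56 in the LCA. In each of these 4 neutrophil markers, and in the platelet chemokine Ppbp (2.98, 3.04, 3.01, 6.19 and 3.11 in the LCA), mouse 4 was the highest ligated artery by over 2 log2 units. Interleukin 1 beta (Il1b) had 4.24, 5.17, 4.33, 8.86 and 3.65 in the LCA and 4.0, 4.36, 4.20, 3.88 and 4.12 in the RCA. None of these genes passed the test (1.55, adjusted p = 0.17 for S100a8 and 1.14, adjusted p = 0.244 for Il1b). Mouse 4 also had the highest LCA value of Sele, Cxcl2 and Sox4, and its LCA minus RCA Gapdh end ratio was the smallest of the 5. Without mouse 4 the count of calls was 1367. The platelet gene Pf4 (0.63, adjusted p = 0.554) and the macrophage lysozyme Lyz2 (1.19, adjusted p = 0.179) did not pass either. In mouse 4 the LCA minus RCA difference was 3.44 for Ppbp and 3.09 for Pf4. It was 0.51 for Itga2b and -0.03 for Gp9, the other platelet markers tested. Lyve1, a marker of lymphatic vessels and some macrophages, was lower in mice 2 to 5 and not in mouse 1 (-1.68, adjusted p = 0.00731).

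**Figure D4:**
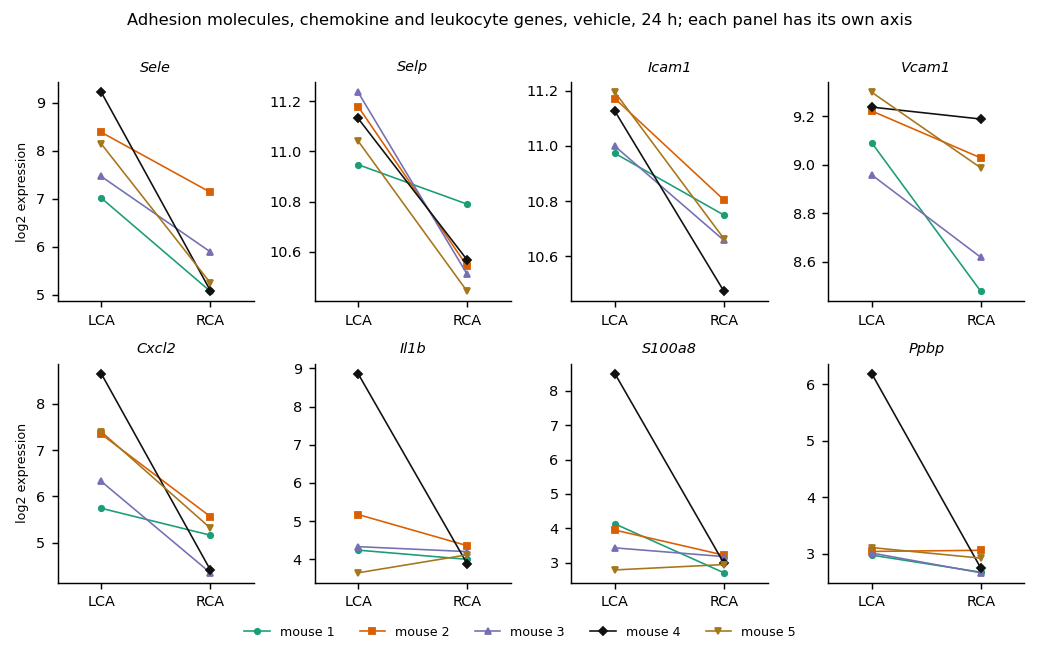
Log2 expression of 4 adhesion molecules (upper row) and of the chemokine Cxcl2, Il1b, S100a8 and Ppbp (lower row) in the LCA and RCA of the 5 vehicle-treated mice at 24 h, joined by mouse. The black diamonds of mouse 4 are the highest LCA values of Sele and of all 4 genes of the lower row, at 8.50 for S100a8 against 2.79 to 4.13 in the other LCA.

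Genes that set vessel tone and clotting shifted in both directions. Endothelin 1 (Edn1), a peptide that constricts vessels and that KLF2 restrains, had 10.04, 10.01, 9.81, 10.48 and 9.71 in the LCA and 8.46, 8.73, 7.48, 7.72 and 7.62 in the RCA, a difference of 2.01 (SE 0.33, adjusted p = 6.44e-05). The rise in single mice was 1.29 to 2.76, with no overlap. Prostacyclin synthase (Ptgis), which makes a dilating and platelet-calming lipid, had 10.44, 10.18, 10.16, 10.37 and 10.14 in the LCA and 11.03, 11.03, 11.14, 11.15 and 11.06 in the RCA, -0.82 (SE 0.11, adjusted p = 1.72e-06). The lipid phosphatase Plpp1 fell by 0.90 (adjusted p = 8.85e-06), whereas the prostaglandin receptor Ptger4 rose by 0.79 (adjusted p = 0.00298, 0.178 with the covariate) and the phospholipase Pla2g4a rose by 0.77 (adjusted p = 0.0258, 0.325 with the covariate). Of 11 genes of coagulation and fibrinolysis 4 fell and 2 rose, beside 7.09% of all genes lower and 7.19% higher. Besides thrombomodulin, annexin A2 (Anxa2), a cofactor for plasmin generation, fell by 1.36 (adjusted p = 1.03e-05), the ATP-clearing Entpd1 fell by 0.57 (adjusted p = 0.0263) and the urokinase receptor Plaur fell by 0.89 (adjusted p = 0.0279, 0.186 with the covariate). Tissue factor pathway inhibitor (Tfpi) rose by 0.60 (adjusted p = 0.036, 0.263 with the covariate) at its brightest probe set, with others between -0.20 and 0.67, and the thrombin receptor F2r rose by 0.30 (adjusted p = 0.0378, 0.349 with the covariate). Leaving out 1 mouse ended the call of Pla2g4a (mouse 2, 3, 4 or 5, up to 0.0993), Entpd1 (mouse 2, 3, 4 or 5, up to 0.113), Plaur (mouse 2, 3 or 5, up to 0.153), Tfpi (mouse 1, 3, 4 or 5, up to 0.172) and F2r (mouse 2, 3, 4 or 5, up to 0.141).

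Angiopoietin 2 (Angpt2), the Tie2 ligand released by activated endothelium, had 5.93, 5.91, 5.22, 6.12 and 6.21 in the LCA and 3.68, 3.69, 3.56, 3.66 and 3.35 in the RCA, 2.29 (SE 0.59, adjusted p = 0.00754, 0.0978 with the covariate). LCA and RCA did not overlap, but its other bright probe set differed by 0.07. Its receptor Tie2 (Tek) differed by -0.19 (adjusted p = 0.464). The VEGF receptor Flt1 fell by 1.01 (adjusted p = 0.00579, 0.12 with the covariate), and Kdr, the main VEGF receptor, differed by -0.21 (adjusted p = 0.686).

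Of 13 genes of elastic fibres and 19 collagens 3 each fell and none rose, beside 7.09% of all genes lower. Elastin (Eln) had 9.81, 9.53, 9.72, 9.74 and 9.80 in the LCA and 11.29, 11.42, 11.74, 11.18 and 11.41 in the RCA, a difference of -1.69 (SE 0.21, adjusted p = 1.02e-06). The microfibril protein Mfap5 fell by 1.34 (adjusted p = 2.47e-05) and the crosslinking enzyme Lox fell by 1.02 (adjusted p = 0.0192, 0.132 with the covariate), the other calls among the elastic fibre genes. Among collagens Col6a3 (-2.06, adjusted p = 0.000206), Col8a1 (-0.93, adjusted p = 0.00634) and Col4a4 (-1.02, adjusted p = 0.028, 0.153 with the covariate) fell. The proteoglycan Spock2 fell by 2.12 (adjusted p = 4.51e-06). Igfbp5, a binding protein of insulin-like growth factors, had 5.23, 4.23, 7.52, 5.67 and 5.71 in the LCA and 8.49, 7.44, 8.15, 7.51 and 8.16 in the RCA, -2.28 (SE 0.71, adjusted p = 0.0261, 0.0978 with the covariate), lower in 5 of 5 mice but with overlap between the arteries. Connective tissue growth factor (Ccn2), a target of YAP and TAZ, had 10.53, 10.23, 9.10, 10.81 and 10.79 in the LCA and 7.68, 8.89, 7.83, 7.05 and 8.13 in the RCA, 2.38 (SE 0.35, adjusted p = 1.6e-05). The Ccn2 call held in each of the 14 alternatives, and the gap was narrowest in mice 2 and 3. The Wnt antagonist Frzb had 6.44, 6.33, 5.52, 7.07 and 6.36 in the LCA and 4.88, 4.44, 3.96, 3.87 and 4.07 in the RCA, 2.10 (SE 0.38, adjusted p = 0.000219). Lumican (Lum), a proteoglycan of fibroblasts, rose by 1.92 (adjusted p = 0.00522, 0.232 with the covariate). Calls lost with 1 mouse left out were those of Lox (mouse 1, 2 or 3, up to 0.0682), Col8a1 (mouse 3, up to 0.0532), Col4a4 (mouse 1, 3, 4 or 5, up to 0.127) and Igfbp5 (mouse 1, 2 or 5, up to 0.103).

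Of the receptors that hold cells to the matrix, integrin beta 5 (Itgb5) rose by 1.25 (adjusted p = 0.000782) and integrin beta 4 (Itgb4, -1.80, adjusted p = 0.000505, 0.0748 with the covariate) and beta 1 (Itgb1, -0.83, adjusted p = 0.00682, 0.374 with the covariate) fell, out of 14 tested. Over all genes tested 7.19% were higher and 7.09% lower. Of 18 genes of TGF-beta signalling 3 rose, among them the co-receptor Tgfbr3 (1.28, adjusted p = 0.00172, 0.0928 with the covariate) and the binding protein Ltbp2 (1.12, adjusted p = 0.017, 0.149 with the covariate). The coactivator TAZ (Wwtr1) rose by 0.49 (adjusted p = 0.00145, 0.0908 with the covariate), with other probe sets at -0.04 and 0.07. The receptor Tgfbr2 had 0.57 (adjusted p = 0.00935, 0.431 with the covariate) at its brightest probe set and -0.54 at the other. Smooth muscle actin (Acta2) rose by 1.30 (adjusted p = 0.0473, 0.3 with the covariate), while its other probe set differed by -0.28. With 1 mouse left out, the call was lost for Ltbp2 (mouse 1 or 4, up to 0.138) and Acta2 (mouse 1, 3, 4 or 5, up to 0.205).

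Of 13 mechanosensor genes, channels and their G proteins, 6 fell, 1 rose and 6 did not pass, with a median of -0.53, beside 7.09% of all genes lower and 7.19% higher. The calcium-activated potassium channel Kcnn4, which hyperpolarises endothelium, had 10.07, 10.15, 10.38, 9.80 and 9.89 in the LCA and 11.03, 11.06, 11.13, 11.14 and 11.30 in the RCA, -1.07 (SE 0.19, adjusted p = 0.000196). Its partner Kcnn3 fell by 0.96 (adjusted p = 0.0474, 0.421 with the covariate), the cation channel Trpv4 fell by 1.12 (adjusted p = 0.00933, 0.316 with the covariate) and the adhesion receptor Adgre5 fell by 0.81 (adjusted p = 0.00014). The G protein subunits Gnaq (-0.74, adjusted p = 0.000883, 0.0597 with the covariate) and Gna11 (-1.02, adjusted p = 0.0252, 0.653 with the covariate) fell and the channel kinase Trpm7 (0.64, adjusted p = 0.00498, 0.318 with the covariate) rose, and of the 7 calls Kcnn4 and Adgre5 passed with the covariate. The other bright probe sets of Trpm7 differed by 0.04 and 0.16. Piezo1, the flow-gated channel, differed by -0.53 (adjusted p = 0.0627). Single mice decided the call of Kcnn3 (mouse 1, 2, 3, 4 or 5, up to 0.146), Trpv4 (mouse 3, up to 0.0613) and Gna11 (mouse 1, 2, 3 or 5, up to 0.115).

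Of 22 cytoskeleton genes 6 fell and none rose, with a median of -0.31, beside 7.09% of all genes lower. The small GTPase Rhoc had 5.18, 4.13, 5.04, 6.12 and 5.19 in the LCA and 6.75, 6.92, 8.19, 7.40 and 7.15 in the RCA, -2.15 (SE 0.36, adjusted p = 8.89e-05). Rhoa (-0.46, adjusted p = 0.000254), Cdc42 (-0.36, adjusted p = 0.0203, 0.444 with the covariate), the actins Actb (-0.39, adjusted p = 0.00906, 0.216 with the covariate) and Actg1 (-0.59, adjusted p = 0.00944) and filamin A (Flna, -0.76, adjusted p = 0.0136, 0.0809 with the covariate) fell by less. At the cell junctions claudin 5 (Cldn5) fell by 1.14 (adjusted p = 0.0245, 0.642 with the covariate), the surface protein podocalyxin (Podxl) fell by 0.67 (adjusted p = 0.00495, 0.0902 with the covariate), and occludin (Ocln) rose by 0.64 (adjusted p = 0.0137, 0.202 with the covariate). Among 20 guidance genes the repellent Sema3f had 6.0, 5.41, 5.89, 6.43 and 5.68 in the LCA and 8.17, 7.62, 8.31, 7.79 and 8.34 in the RCA, -2.16 (SE 0.21, adjusted p = 9.03e-09), with no overlap. The ephrin receptor Epha2 (-0.73, adjusted p = 0.00995) and the receptor Plxna2 (-0.69, adjusted p = 0.011, 0.263 with the covariate) fell as well, and Sema6a (0.93, adjusted p = 0.0137, 0.132 with the covariate) rose. Leaving out 1 mouse ended the call of Cdc42 (mouse 1, 3 or 5, up to 0.128), Actb (mouse 3, up to 0.0534), Actg1 (mouse 3, up to 0.0613), Flna (mouse 5, up to 0.101), Cldn5 (mouse 1, 2, 3 or 5, up to 0.11), Ocln (mouse 2, up to 0.0939), Epha2 (mouse 3, up to 0.0503), Plxna2 (mouse 1 or 3, up to 0.0835) and Sema6a (mouse 2 or 5, up to 0.0731).

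The efflux pump Abcb1b (P-glycoprotein) had 7.95, 8.18, 8.02, 7.99 and 8.46 in the LCA and 5.61, 6.02, 5.59, 5.86 and 6.08 in the RCA, a difference of 2.29 (SE 0.21, adjusted p = 2.01e-09), the smallest adjusted p among rises. Slc10a6, which imports steroid sulfates, had 7.14, 6.46, 6.18, 7.86 and 6.81 in the LCA and 4.91, 4.04, 5.30, 4.47 and 4.64 in the RCA, 2.22 (SE 0.46, adjusted p = 0.00119). With the zinc importer Slc39a8 (1.22, adjusted p = 7.81e-05) and the cholesterol exporter Abcg1 (0.74, adjusted p = 0.00625) they made 4 rises and no fall among 16 transporters, beside 7.19% of all genes higher, all 4 also with the covariate. The glycolytic regulator Pfkfb3 rose by 1.07 (adjusted p = 0.000217), the acyl-CoA thioesterase Acot1 rose by 1.43 (adjusted p = 0.00108), the sterol sensor Insig1 rose by 0.99 (adjusted p = 7.91e-05) and the isoprenoid enzyme Idi1 rose by 0.66 (adjusted p = 0.0263, 0.387 with the covariate). Of 19 chaperones of the endoplasmic reticulum 5 fell, Manf (-1.0, adjusted p = 0.012, 0.254 with the covariate) and calreticulin (Calr, -0.73, adjusted p = 0.0321, 0.625 with the covariate) among them, and none with the covariate. Of all genes 7.09% were lower. The small heat shock protein Hspb1 fell by 1.11 (adjusted p = 0.0263, 0.431 with the covariate). Calls lost with 1 mouse left out were those of Idi1 (mouse 1, 3 or 5, up to 0.143), Manf (mouse 2, 3 or 5, up to 0.0562), Calr (mouse 2, 3 or 5, up to 0.123) and Hspb1 (mouse 1, 2 or 3, up to 0.136).

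Of 16 clock genes 2 rose and 1 fell, and of 18 immediate early genes 2 rose and 2 fell, beside 14.3% of all genes called. Nfil3, a repressor of the clock output, had 7.33, 7.96, 7.68, 7.52 and 8.04 in the LCA and 5.67, 6.34, 6.70, 5.71 and 5.50 in the RCA, 1.72 (SE 0.24, adjusted p = 5.42e-06). Of the other 15 clock genes Hlf rose (0.68, adjusted p = 0.0428, 0.352 with the covariate) and Bhlhe40 fell (-0.78, adjusted p = 0.0205). Among immediate early genes Fosl2 (1.09, adjusted p = 0.00168, 0.062 with the covariate) and Maff (1.02, adjusted p = 0.00726, 0.202 with the covariate) rose and Jun (-0.58, adjusted p = 0.0137, 0.221 with the covariate) and Nr4a1 (-1.77, adjusted p = 0.0144) fell, while Fos differed by 0.50 (adjusted p = 0.727) and Egr1 by -0.36 (adjusted p = 0.587). The other bright probe set of Fosl2 differed by 0.15. Dzank1, a double zinc ribbon and ankyrin repeat protein of no list, had 5.52, 6.49, 6.43, 5.90 and 6.94 in the LCA and 3.73, 3.67, 3.83, 4.34 and 4.18 in the RCA, 2.31 (SE 0.41, adjusted p = 0.000197). With 1 mouse left out, the call was lost for Hlf (mouse 1, 2, 3 or 5, up to 0.238), Bhlhe40 (mouse 1, 3 or 5, up to 0.0871), Jun (mouse 1, up to 0.0586) and Nr4a1 (mouse 2 or 3, up to 0.0882).

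The 5 mice resembled each other moderately. Across the 11344 genes, which are not independent, the correlation of the differences between 2 mice ran from 0.34 to 0.56 over the 10 pairs, with a median of 0.42. Between 933 and 1188 genes differed by at least 1 log2 unit in a single mouse.

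More genes were called at 24 h than at 12 h, but no gene's change between the times passed the test. At 12 h 271 genes (2.39%) differed between the arteries, of which 188 were among the 1620 of 24 h, 11.6% of the 24 h calls and 69.4% of the 12 h calls, with 187 in the same direction. The correlation of both mean differences across genes was 0.54, in separate mice measured on the same array type. In the test of 24 h minus 12 h itself, limma called 0 genes at an adjusted p under 0.05 and 1189 at an unadjusted p under 0.05, with a smallest adjusted p of 0.0708. Fitted to vehicle-treated mice alone, the test of 24 h minus 12 h called 7 genes, and without mouse 4 it called 3. Differences at 12 h and 24 h were -2.39 and -3.01 for Klf2, -1.74 and -3.20 for Klk10, -0.95 and -2.72 for Id1 (adjusted p of the change 0.0708) and -0.78 and -2.67 for Spry4 (0.0724). Sema3f differed by -0.64 at 12 h and -2.16 at 24 h (0.0708). Edn1, Depp1 and Klf15 were already at 1.89, 3.03 and 2.13 at 12 h.

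Between 24 h and 48 h the change of the difference passed the test in 3149 genes (27.8%), 1705 positive and 1444 negative, and in 884 with the end ratio as covariate. Of the 1620 genes called at 24 h, 827 (51%) changed by 48 h, 793 of them against and 34 along their 24 h direction. The same 24 h values chose these genes and were subtracted in the change, which favours changes against the 24 h direction. The split of 793 and 34 is thus not independent of that choice. Of the 1620, 641 were also called at 48 h, 424 in the same and 217 in the opposite direction. The 48 h mice had 4109 calls (36.2%), and the correlation of both mean differences across genes was 0.20.

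The flow genes were still low. At 48 h 14 of the 18 laminar flow genes were lower and 1 higher, with a median of -1.11, beside 36.2% of all genes called in either direction. Klf2 differed by -2.96, a change of 0.05 (adjusted p = 0.92). Klk10 went further, to -4.56, a change of -1.36 (adjusted p = 0.0168), and Dll1 was at -2.66 (-0.18, adjusted p = 0.77). Id1, by contrast, differed by -0.06 at 48 h, a change of 2.65 (adjusted p = 6.15e-05), Spry4 by -1.01 and Ptp4a3 by -0.13. Flt1, lower at 24 h, was higher at 48 h (1.07, change 2.08, adjusted p = 0.000329).

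The FoxO-type genes did not stay up as a group. Of the 20 genes, 15 changed downwards between 24 h and 48 h and none upwards, beside 12.7% of all genes downwards and 15% upwards. The list was chosen with earlier results known, and its 24 h values are subtracted in this change, which favours downward changes. In the LCA at 48 h 9 were lower and 3 higher, beside 36.2% of all genes called. The median was -0.39, against 0.39 at 12 h and 0.72 at 24 h. Klf15 differed by -0.23 at 48 h (change -2.46, adjusted p = 0.0013), Pdk4 by 0.60 (change -1.76, adjusted p = 0.000732), Ccng2 by -0.38 (change -1.82, adjusted p = 0.000269) and Fbxo32 by -1.20 (change -2.36, adjusted p = 7.89e-05). Gadd45a differed by 3.04 at 48 h (change -0.14, adjusted p = 0.889).

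Cell cycle genes showed the opposite order. Of the 28, none was higher at 12 h or 24 h and 22 were higher at 48 h, with medians of -0.07, 0.06 and 1.65, and 20 of the changes from 24 h to 48 h were upward. At 48 h 1 was lower. Over all genes 36.2% were called at 48 h in either direction, and 15% changed upwards from 24 h. Ccnd1, lower at 24 h, differed by 1.02 at 48 h, a change of 2.39 (adjusted p = 0.00102). Endoplasmic reticulum chaperones, with 5 falls at 24 h, had 10 rises at 48 h, and Manf changed by 2.20 (adjusted p = 0.000329). Immediate early genes had 10 rises at 48 h, and Nr4a1 changed by 3.46 (adjusted p = 0.000928).

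The largest upward changes to 48 h were in Esm1 and 5 other genes. Esm1, an endothelial proteoglycan of sprouting vessels, differed by 0.07 at 24 h and 5.55 at 48 h (change 5.48, adjusted p = 0.00104). The growth factor binder Igfbp3 (change 4.31, adjusted p = 0.0012), the growth factor Hbegf (4.16, adjusted p = 0.00154), the Schlafen gene Slfn1 (4.10, adjusted p = 0.00298), Il1b (4.07, adjusted p = 0.00155) and the receptor Kit (3.86, adjusted p = 0.0007) followed. Of 7 measured neutrophil markers 4 passed the filter on dim probe sets, which counts arrays of all groups, the 48 h ones included. A marker dim at 24 h could be tested only through arrays where it was bright. The count of neutrophil markers higher at 48 h is therefore not independent of the filter. These 4, at a median of 1.07 without a call at 24 h, were all higher at 48 h with a median of 4.12. Of 12 macrophage markers 8 were higher, beside 36.2% of all genes called at 48 h in either direction. The part of these cells in the 48 h values was not tested. Among the 6 largest changes downwards were 3 flavin monooxygenases, with Fmo1 at 1.99 at 24 h and -1.66 at 48 h (change -3.65, adjusted p = 0.00436), Fmo2 at 1.46 and -1.73 (change -3.19, adjusted p = 0.00504) and Fmo5 at 0.81 and -2.37 (change -3.18, adjusted p = 0.000604). Dzank1 differed by 2.31 at 24 h and -1.03 at 48 h (change -3.34, adjusted p = 0.000329). The secreted protein Vwc2 differed by -0.30 at 24 h and -3.60 at 48 h (change -3.31, adjusted p = 0.000203), and the organic anion carrier Slco2b1 by 1.76 and -1.40 (change -3.16, adjusted p = 0.00109).

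**Figure D5:**
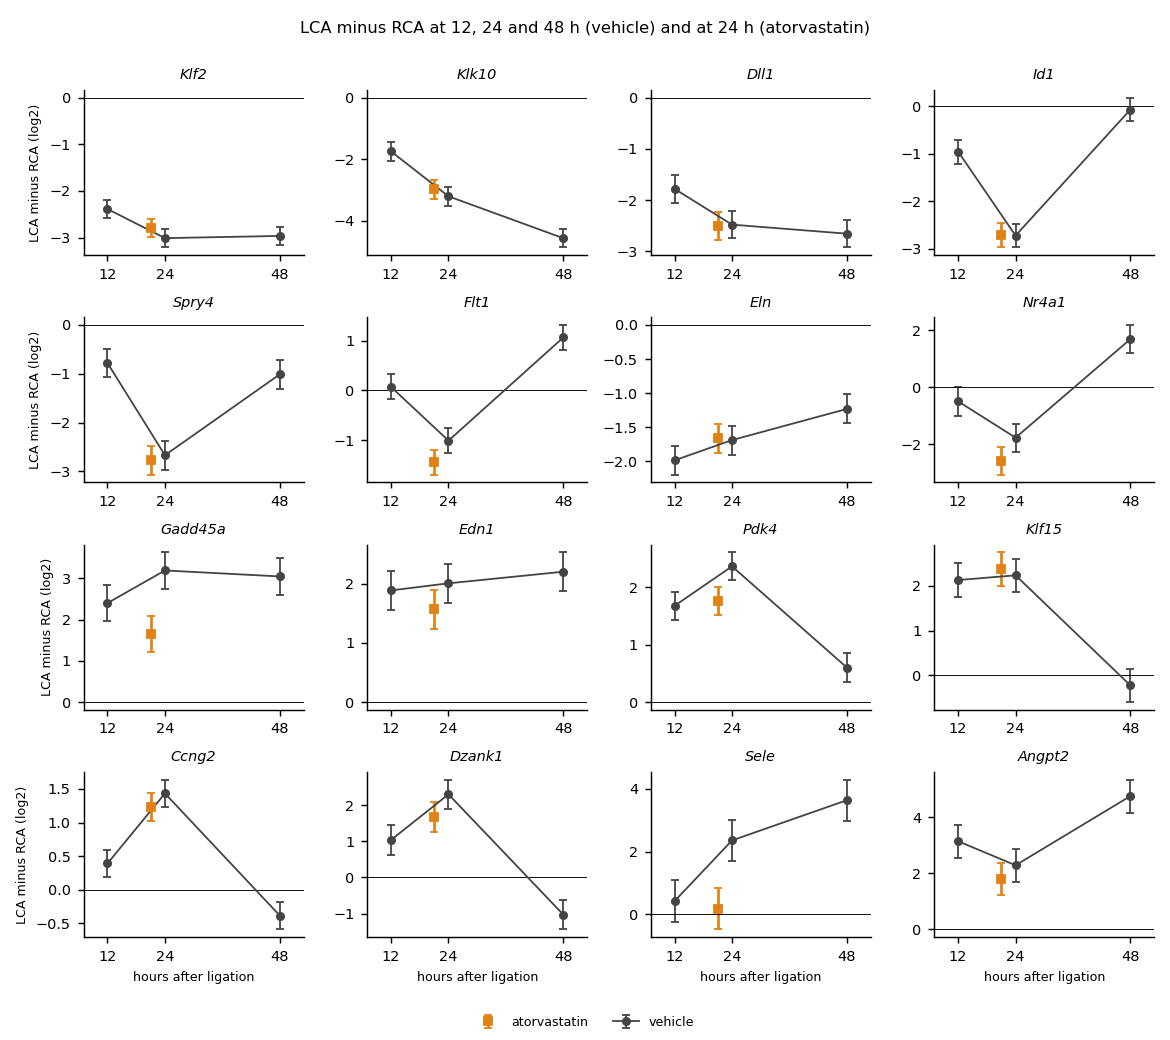
Mean log2 difference between LCA and RCA at 12, 24 and 48 h in vehicle-treated mice (grey circles) and at 24 h in atorvastatin-treated mice (orange squares, drawn left of the 24 h mark), 5 mice each, with bars for the SE of the shared fit. Klf2 stays near -3 while Id1 returns to -0.06 and Dzank1 crosses zero at 48 h, and Sele is at 0.17 under atorvastatin and 2.36 under vehicle at 24 h.

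Mice given atorvastatin were compared at the same time point. The atorvastatin group had 1485 calls (13.1%), of which 951 were shared with the 1620 of vehicle, 64% of the atorvastatin calls and 58.7% of the vehicle calls, all in the same direction. The correlation of both mean differences across genes was 0.79, and 1586 (97.9%) of the 1620 had the same sign. In the test of atorvastatin minus vehicle, limma called 0 genes at an adjusted p under 0.05 and 296 at an unadjusted p under 0.05, with a smallest adjusted p of 0.521. The difference between LCA and RCA under atorvastatin and vehicle was -2.79 and -3.01 for Klf2, -2.97 and -3.20 for Klk10, -1.05 and -1.32 for Nos3 and 1.57 and 2.01 for Edn1. It was 1.65 and 3.19 for Gadd45a, and 0.17 and 2.36 for Sele, a difference between treatments of -2.19 (adjusted p = 1). The FoxO-type list had 14 rises and 1 fall with a median of 0.80 under atorvastatin, against 14 rises and no fall with 0.72 under vehicle. The laminar flow list had 11 and 10 falls, with medians of -0.66 and -0.73. With 5 mice in each group, a p above the threshold does not show that both treatments acted alike.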

How the data were processed

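Each sample is 1 carotid artery on 1 Affymetrix array, and LCA and RCA were paired because the labels name the same mouse for both. The authors deposited log2 expression values per probe set, made with RMA, as stated in the submitters' processing notes. The program behind RMA, its version and the chip definition were not found there. Arrays carry no read depth, so that the number of mice limits the precision. Probe sets were named from GEO's platform annotation: of 45118, 28898 had 1 gene symbol, 551 several and 15588 none, and 81 were controls. Each gene was represented by its brightest probe set and kept where it exceeded the array's 50th percentile on at least 4 of 78 arrays, leaving 11344 of 17097 genes. LCA minus RCA was formed within each mouse and fitted with limma 3.58.1 in R 4.3.3 over all 39 mice with 1 mean for each of the 8 groups, and the Benjamini-Hochberg adjustment ran over all genes tested. The mice of a group share 1 estimate of the spread with the others, so the SE of a gene is the same for every group of 5. The code was tested on simulated data. Genes named are the 12 largest rises and falls that passed with the same sign in 5 of 5 mice, up to 6 called members of each list by adjusted p, and the 6 largest changes each way to 48 h. Predicted genes, with Gm or Rik names, were not named. Further called members of long lists and reference genes that did not pass were chosen after their values were seen. The comparison and the gene lists were chosen with earlier results of these data known. Promoter sequences are RefSeq's, on GRCm38.p6. Alternatives were no pairing, other samples in the fit, a second quantile normalization, no filter, the mean of probe sets, trend and robust eBayes, the Gapdh end ratio as covariate, and leaving out mice.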

Additional observations from a re-analysis of the deposited data

Results flagged for a closer look

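Among the 221 named genes, 17 had 1 mouse far from the other 4 in the difference between LCA and RCA. By chance this rule flags about 1 gene in 20 among genes chosen without regard to their values. Some of the 221 were named after their values were seen, so the 17 cannot be compared with that rate. In mouse 4 the neutrophil genes S100a8 (5.52, against -0.16 to 1.42 in the others), Cxcr2 (3.24) and Csf3r (1.97), the platelet gene Ppbp (3.44), Il1b (4.98) and Igfbp3 (1.04) stood above the other mice. In mouse 2 Gja4 (0.29, against 1.38 to 1.47), Itgb5 (0.60) and Mob2 (-1.81) differed less than in the others, and Pla2g4a (1.06) more. Mouse 1 had the smallest difference of Selp (0.16) and Col6a3 (-1.15) and the only positive one of Lyve1 (0.15). Mouse 3 had the largest fall of Ccnd1 (-2.03). Mouse 5 had the largest difference of Fbxo32 (1.64) and Idi1 (1.17), and the smallest of Pecam1 (-0.067).

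The difference between LCA and RCA changed most between 24 h and 48 h in Esm1 (5.48), Igfbp3 (4.31), Hbegf (4.16), Slfn1 (4.10), Il1b (4.07) and Kit (3.86) upwards. Downwards the largest changes were in Fmo1 (-3.65), Dzank1 (-3.34), Vwc2 (-3.31), Fmo2 (-3.19), Fmo5 (-3.18) and Slco2b1 (-3.16). These come from the test of the change itself in limma, between separate groups of 5 mice.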

How the results depend on the processing

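Of 185 called genes named, Cdkn1b (-0.0657), Tgfbr2 (-0.0078) and Sod1 (0.0305) changed sign with the mean of all probe sets of a gene, and no other did under any of the 14 alternatives. With the Gapdh end ratio as covariate 386 genes passed for LCA minus RCA at 24 h, 148 higher and 238 lower, and 884 for 48 h minus 24 h, and 80 of the 185 named genes kept their call. The cause was not tested. Without mice 2 and 3, chosen after seeing the data, the 24 h counts were 442, 210 and 232, from fewer samples. Leaving out 1 mouse gave 898 to 1367 genes (1047 without mouse 2, 898 without mouse 3 and 920 without mouse 5), 421 to 667 higher and 452 to 700 lower, with 106 of the 185 kept in each such fit, and 2367 to 3024 genes for 48 h minus 24 h. For 24 h minus 12 h the count was 7 when fitted to vehicle-treated mice, 2 with the mean of all probe sets and 0 to 3 with 1 mouse left out, 3 of them without mouse 4. For atorvastatin minus vehicle it was 0 in each alternative run, a fit to vehicle-treated mice being not applicable. Without the pairing of LCA and RCA as a replicate block 1362 genes passed at 24 h, 698 higher and 664 lower. The other alternatives gave 1534 to 1820 genes. Arrays give no read depth, and the dimmest genes are limited by background signal.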

Other observations

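Genes of energy metabolism and stress responses not described above passed in both directions in the LCA at 24 h, beside 14.3% of all genes tested. Of 20 genes of glycolysis and hypoxia 3 rose and 1 fell. Pdk1, a brake on pyruvate dehydrogenase, rose by 0.84 (adjusted p = 0.0069, 0.242 with the covariate), and the hexokinase Hk1 fell by 1.11 (adjusted p = 0.0382, 0.446 with the covariate). The other bright probe set of Hk1 differed by -0.29. Of 23 nuclear-encoded respiratory chain genes 3 fell and 1 rose. The complex I subunit Ndufa1 fell by 0.42 (adjusted p = 0.0016, 0.0758 with the covariate), the complex II subunit Sdhc fell by 0.82 (adjusted p = 0.00472, 0.414 with the covariate) and the ATP synthase subunit Atp5b fell by 0.70 (adjusted p = 0.0303, 0.449 with the covariate), while the complex III subunit Uqcrfs1 rose by 0.41 (adjusted p = 0.0413, 0.397 with the covariate). Of 19 genes of fatty acid handling 3 rose and 1 fell, among them the dehydrogenase Acadm (0.49, adjusted p = 0.0135, 0.236 with the covariate) and the lipid droplet protein Plin2 (0.51, adjusted p = 0.0338, 0.42 with the covariate) upwards and the carrier Fabp5 (-0.57, adjusted p = 0.0304, 0.113 with the covariate) downwards. Of 16 sterol genes 3 rose, among them the sterol carrier Stard4 (0.48, adjusted p = 0.0333, 0.335 with the covariate), which had 1 of its other probe sets at -0.11. Of 18 antioxidant genes catalase (Cat, 0.55, adjusted p = 0.0107, 0.276 with the covariate) and Mgst1 (0.50, adjusted p = 0.0177, 0.493 with the covariate) rose, and the peroxidase Gpx1 (-0.61, adjusted p = 0.0134, 0.438 with the covariate), Sod1 (-0.47, adjusted p = 0.0381, 0.749 with the covariate) and Nqo1 fell, with another probe set of Sod1 at 0.54. Calls lost with 1 mouse left out were those of Pdk1 (mouse 3, up to 0.0555), Hk1 (mouse 1, 3 or 4, up to 0.359), Sdhc (mouse 2, up to 0.0505), Atp5b (mouse 1, 2, 3 or 5, up to 0.122), Uqcrfs1 (mouse 1, 2, 3, 4 or 5, up to 0.156), Acadm (mouse 3 or 5, up to 0.0702), Plin2 (mouse 1, 2, 4 or 5, up to 0.172), Fabp5 (mouse 1, 2 or 3, up to 0.134), Stard4 (mouse 2, 3, 4 or 5, up to 0.165), Cat (mouse 3, up to 0.0601), Mgst1 (mouse 3 or 5, up to 0.0782), Gpx1 (mouse 3 or 5, up to 0.0606) and Sod1 (mouse 1, 2, 3 or 5, up to 0.198).

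Of 13 glucocorticoid-responsive genes the co-chaperone Fkbp5 rose by 0.74 (adjusted p = 0.0264) and Tsc22d3 fell by 0.66 (adjusted p = 0.0362, 0.364 with the covariate), both standard targets of the receptor. The other bright probe set of Fkbp5 differed by 0.17. Beside this list and those that follow, 14.3% of all genes were called. Of 19 endoplasmic reticulum chaperones 5 fell, among them Pdia6 (-0.45, adjusted p = 0.0322, 0.0907 with the covariate), Hsp90b1 (-0.28, adjusted p = 0.0338, 0.396 with the covariate) and Dnajb11 (-0.43, adjusted p = 0.0355, 0.367 with the covariate). Of 10 cytosolic heat shock genes 3 fell, among them Hsp90aa1 (-0.62, adjusted p = 0.0312, 0.276 with the covariate) and Dnajb1 (-0.27, adjusted p = 0.0264, 0.198 with the covariate). Of 18 targets of the stress factor ATF4 Slc3a2 (0.40, adjusted p = 0.02, 0.271 with the covariate) and Trib3 (0.74, adjusted p = 0.0471, 0.337 with the covariate) rose. Of 19 Wnt genes 1 rose and 2 fell. Those that fell were the receptor Fzd1 (-0.63, adjusted p = 0.0255, 0.068 with the covariate) and the co-receptor Lrp5 (-0.66, adjusted p = 0.00704, 0.17 with the covariate). S100a4, a marker used for mesenchymal change, fell by 1.26 (adjusted p = 0.00129), the complement regulator Cd55 fell by 0.69 (adjusted p = 0.0171), the GTPase Rac1 fell by 0.30 (adjusted p = 0.0183, 0.159 with the covariate), and the DNA demethylating enzyme Tet2 rose by 0.38 (adjusted p = 0.0443, 0.306 with the covariate). With 1 mouse left out, the call was lost for Fkbp5 (mouse 1, 4 or 5, up to 0.131), Tsc22d3 (mouse 1, 2, 3, 4 or 5, up to 0.0969), Pdia6 (mouse 1, 2, 3, 4 or 5, up to 0.0959), Hsp90b1 (mouse 3, 4 or 5, up to 0.232), Dnajb11 (mouse 1, 2, 3 or 5, up to 0.14), Hsp90aa1 (mouse 1, 2, 3 or 5, up to 0.113), Dnajb1 (mouse 2, 3 or 5, up to 0.0974), Slc3a2 (mouse 3 or 5, up to 0.0877), Trib3 (mouse 1, 2, 3, 4 or 5, up to 0.149), Fzd1 (mouse 1, 2 or 3, up to 0.148), Cd55 (mouse 4 or 5, up to 0.0999), Rac1 (mouse 1, 2 or 5, up to 0.0778) and Tet2 (mouse 1, 2, 3 or 5, up to 0.257).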
